A study of Arabidopsis thaliana with 9 samples.

Results

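The comparison described here sets 3 RNA-seq libraries of the Arabidopsis thaliana line clpp2-1 against 3 of the wild type, 6 of the 9 libraries of the series, over every gene in the table. The wild type (wt) is the accession Col-0, and clpp2-1 is a knock-out line made in Col-0 for the nuclear gene CLPP2 (AT5G23140); the sources used here do not say how or where the gene was disrupted. Both genotypes were sampled as whole seedlings at 2 weeks, raised in shaken liquid culture with 16 h of light at 22 °C, 8 h of dark at 18 °C and 150 µmol m-2 s-1. A second line for the same gene, clpp2-2, also in Col-0, has 3 libraries too; here it enters only the shared estimate of spread and the values set side by side near the end. The table holds 22254 genes, of which 118 are mitochondrial identifiers (ATMG), 80 plastid identifiers (ATCG) and 22056 nuclear. Of these, 20294 had enough counts to be tested, namely 116 mitochondrial, 77 plastid and 20101 nuclear.

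CLPP2 is the proteolytic subunit of ClpXP, a protease of the mitochondrial matrix in which the chaperone ring CLPX unfolds proteins and feeds them into the CLPP chamber. The plant mitochondrial genome encodes only some subunits of the respiratory complexes I, III, IV and of the ATP synthase, along with ribosomal proteins and cytochrome c maturation factors; the remaining subunits are nuclear genes whose products are imported. Plant mitochondrial genes are transcribed from many promoters, several are split by introns, and parts of nad1, nad2 and nad5 are joined by trans-splicing. The study asks how complexes built from both genomes are coordinated and assembled with the help of this protease.

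The 6 libraries held 36248488 to 36369630 estimated counts each. Levels are given as CPM, counts per 1000000 of the library size after TMM scaling, so a level can be followed between libraries for 1 gene but not between genes of different length. The labels do not say if libraries of 1 genotype are separate cultures; each p-value reflects sample-to-sample spread alone, part or all of which may be technical. A gene is said to have risen or fallen, or is called, where edgeR's quasi-likelihood test gave a Benjamini-Hochberg adjusted p under 0.05 over all genes tested. In whole seedlings, fewer cells of a type and less RNA per cell cannot be told apart. The 3 shoot markers (RBCS1A, RCA, LHCB1.3) summed to 14270 to 21960 CPM in wt and 16830 to 18220 CPM in clpp2-1, and the 3 root markers (PYK10, COBL9, SCR) to 2172 to 3604 and 2038 to 2430 CPM, so both tissues were present in every library. The 4 floral markers summed to 1.27 to 2.69 CPM in wt and 1.99 to 2.91 CPM in clpp2-1. RNA of the 8 seed storage markers ranged from 0.377 CPM in wt 3 to 108 CPM in wt 1 and from 0.896 CPM in clpp2-1 3 to 13.1 CPM in clpp2-1 1. The part of this seed RNA in the results was not tested beyond leaving out wt 1 and clpp2-1 1 together, which gave 23 called genes in place of 36.

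CLPP2 RNA was low in every clpp2-1 library. It stood at 44.5, 46.6 and 42.9 CPM in wt 1 to 3 and at 5.72, 4.88 and 6.08 CPM in clpp2-1 1 to 3. The groups lay far apart, with a log2 fold change of -3.004 (SE 0.08, adjusted p = 2.38e-06). Between 179 and 224 counts for CLPP2 were left in each clpp2-1 library.

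Few genes changed in clpp2-1, and 27 of the 36 called were mitochondrial. Of 20294 genes tested, 36 were called (0.177%), 31 higher (0.153%) and 5 lower (0.0246%). They comprised 27 of 116 mitochondrial identifiers (23.3%; 26 higher and 1 lower) and 9 of 20101 nuclear genes (0.0448%; 5 higher and 4 lower). No plastid identifier of 77 was called by edgeR or limma-voom; 17 had an unadjusted p under 0.05, beside 1306 of all genes tested (6.44%), and DESeq2 called 2. In all 36 called genes the 3 clpp2-1 libraries lay beyond the 3 wt libraries, and 30 changed by at least 2-fold. Over the whole table, 1049 genes lay above all wt libraries (5.17%) and 902 below (4.44%). Among mitochondrial identifiers 45 lay above (38.8%) and 16 below (13.8%). Nuclear genes stood at 4.91% above and 4.41% below. As 20101 of the 20294 genes tested, they largely set the value for the whole table.

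The median log2 fold change was 0.21 over the mitochondrial identifiers, 0.20 over the plastid identifiers and -0.000803 over all genes tested. The mitochondrial values were spread in both directions around their median, with 10% of identifiers under -0.61 and 10% over 1.62, whereas plastid values were narrow (0.01 to 0.48 for the same 10% limits). Same-numbered wt and clpp2-1 libraries deviated together weakly (correlations of 0.115 to 0.253 across genes). With the replicate number as a block 23 genes were called, all among the 36 and 18 of them mitochondrial. The number of calls also rests on single libraries: 23 genes were called without wt 1 and 63 without wt 2, where 34 nuclear genes were added. In that fit 21 of the calls were mitochondrial, so most were nuclear. DESeq2 called 92 genes (0.454%), all 36 included, of which 38 were mitochondrial and 52 nuclear, and limma-voom called 29 (0.143%), all among the 36.

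The mitochondrial genome gave a larger share of all counts in clpp2-1. Its share was 0.0540, 0.0537 and 0.0585% of counts in wt 1 to 3 and 0.0858, 0.1065 and 0.0942% in clpp2-1 1 to 3. Every clpp2-1 library was above every wt library, 1.73 times on the means (exact two-sided permutation p = 0.1, the smallest that 3 against 3 libraries can give). Exact Clopper-Pearson 95% intervals, which cover counting error only, were narrow beside these gaps, for example 0.0577 to 0.0593% in wt 3 and 0.0849 to 0.0868% in clpp2-1 1, the nearest libraries of the 2 groups. The plastid share was 0.412, 0.423 and 0.356% in wt and 0.456, 0.507 and 0.379% in clpp2-1. These plastid values overlapped between the genotypes, with a ratio of 1.13 (exact two-sided permutation p = 0.3). Within each of the 3 same-numbered pairs the plastid share was higher in clpp2-1 (exact paired permutation p = 0.25, the smallest that 3 pairs can give). The mitochondrial share was also higher in clpp2-1 in each pair, and the same lower limit holds for a paired test of it.

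**Figure D1:**
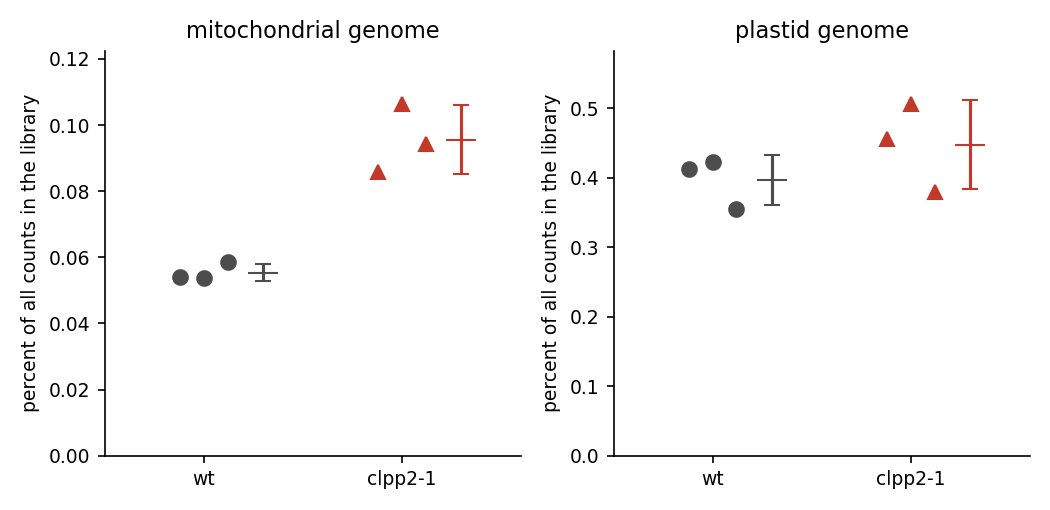
Share of all counts that came from the mitochondrial genome (left) and the plastid genome (right), in percent of the library, with 1 point per library and the mean ± SD of 3 libraries beside them. The mitochondrial points of clpp2-1 (0.0858 to 0.1065%) all lie above those of wt (0.0537 to 0.0585%), while the plastid points overlap.

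The larger mitochondrial share came from a limited set of transcripts. Summed over the genome, mitochondrial RNA went from 551 CPM in wt to 945 CPM in clpp2-1, with 72 identifiers higher and 46 lower on their means. The 26 identifiers called higher made up 87.4% of this net difference. ATMG00030, an identifier with no name in the lists used, gave 15.8%, atp1 11.6% and atp9 9.50%. Over the identifiers not called higher, the share of counts was 0.0324, 0.0342 and 0.0364% in wt 1 to 3 and 0.0357, 0.0449 and 0.0381% in clpp2-1 1 to 3, a ratio of 1.152 with overlapping groups, though it was higher in clpp2-1 in all 3 same-numbered pairs. The members of the called set were chosen by the same counts, so these shares describe where the difference lay and are not a test.

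The ATP synthase was the respiratory complex whose mitochondrially encoded genes moved most: 4 of 6 identifiers rose, none fell, all 6 fold changes were above 0, and the median log2 fold change was 1.16 against -0.000803 over all genes tested. atp9 encodes the subunit of the rotating membrane ring. Its RNA stood at 12.8, 13.6 and 14.6 CPM in wt and 44.1, 58.9 and 50.2 CPM in clpp2-1. All clpp2-1 libraries were over 3 times as high as the wt mean (log2 1.90, SE 0.11, adjusted p = 0.000185). atp8, a small membrane subunit, stood at 3.59, 2.59 and 2.80 CPM in wt and 10.7, 15.4 and 14.3 CPM in clpp2-1. The groups did not overlap (log2 2.17, SE 0.17, adjusted p = 0.00151). atp6 encodes the subunit that forms the proton path beside the ring. The identifier atp6-1 (ATMG00410) stood at 9.08, 8.39 and 8.99 CPM in wt and 22.7, 23.8 and 22.0 CPM in clpp2-1, with little spread in either genotype (log2 1.37, SE 0.07, adjusted p = 0.000185).

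atp1, the catalytic-head alpha subunit, stood at 51.4, 46.1 and 50.8 CPM in wt and 83.8, 106 and 95.6 CPM in clpp2-1. Its rise was smaller than those of atp8 and atp9 (log2 0.95, SE 0.08, adjusted p = 0.00293). The other identifier of the atp6 pair, atp6-2 (ATMG01170), stood at 28.0, 27.5 and 31.1 CPM in wt and 33.9, 41.3 and 35.2 CPM in clpp2-1. Its libraries did not overlap either, but it was not called (log2 0.35, SE 0.09, adjusted p = 0.631). The copies share sequence, and how the counting divided reads between them is not stated, so the contrast between them is uncertain. atp4, of the stalk that holds the head in place, overlapped between the genotypes (log2 0.21, adjusted p = 0.803). atp9, atp8, atp6-1 and atp1 were called under every alternative fit run.

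**Figure D2:**
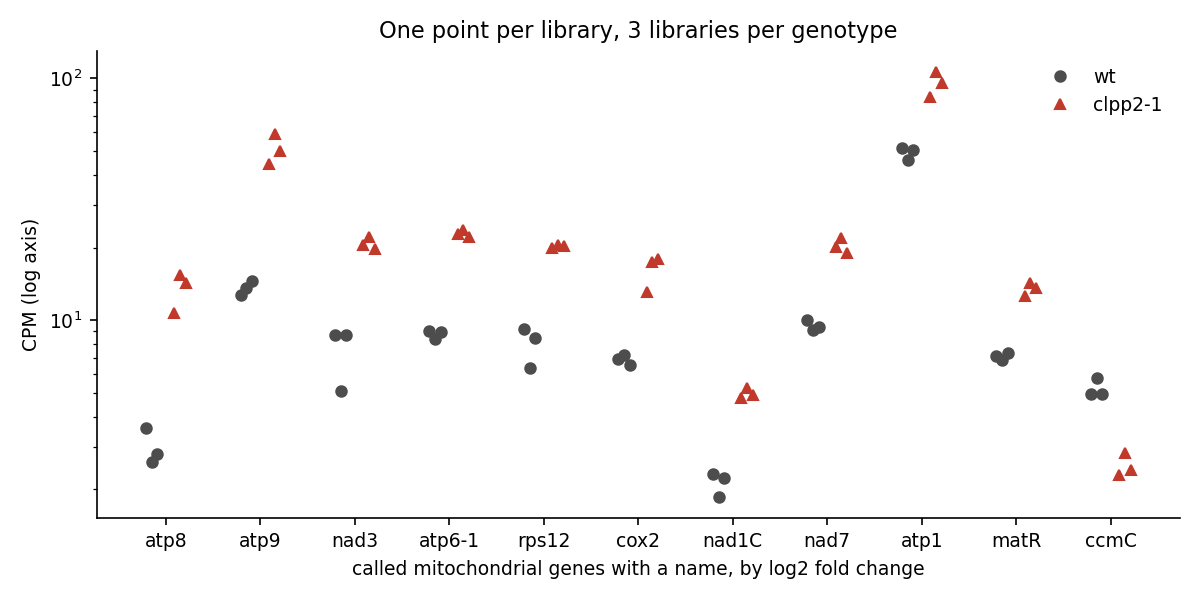
CPM on a log axis of the 11 called mitochondrial genes that have a name, 1 point per library, wt as circles and clpp2-1 as triangles, ordered from the largest to the smallest log2 fold change. In atp8, atp9, nad3, atp6-1, rps12, cox2, nad1C, nad7, atp1 and matR every triangle lies above every circle; in ccmC every triangle lies below.

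Complex I, the NADH dehydrogenase, was mixed: 3 of its 13 mitochondrially encoded identifiers rose, none was called lower, and the median log2 fold change was 0.29. nad7, a subunit of the matrix arm, stood at 9.99, 9.14 and 9.39 CPM in wt and 20.2, 22.0 and 19.1 CPM in clpp2-1. Its libraries were tight in both genotypes (log2 1.10, SE 0.10, adjusted p = 0.00293). nad3, of the membrane arm, stood at 8.69, 5.10 and 8.67 CPM in wt and 20.4, 22.1 and 19.7 CPM in clpp2-1. The low wt 2 widened the wt spread, and nad3 was called with a log2 fold change of 1.47 (SE 0.19, adjusted p = 0.0269). nad1C, the last of the separately listed parts of nad1, stood at 2.32, 1.87 and 2.23 CPM in wt and 4.77, 5.26 and 4.92 CPM in clpp2-1 (log2 1.22, SE 0.15, adjusted p = 0.0196).

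The parts of the trans-spliced genes did not share 1 value. For nad1, nad1A had a log2 fold change of 0.29 (adjusted p = 0.803) and nad1B, at 0.383 CPM in wt and 0.862 in clpp2-1, of 1.16 (adjusted p = 0.758), beside 1.22 for nad1C. nad5A stood at 8.36, 8.39 and 8.64 CPM in wt and 14.3, 16.9 and 13.03 CPM in clpp2-1. It was the gene nearest the threshold among those not called (log2 0.80, adjusted p = 0.0549). nad5C had a log2 fold change of 0.66 (adjusted p = 0.104), and nad2A and nad2B of 0.19 and 0.25 (adjusted p = 0.786 and 0.758). Among members not listed in parts, nad4 had a log2 fold change of 0.25 and nad4L of 0.01, both with overlapping libraries. nad9 and nad6 lay below all wt libraries without being called: nad9 stood at 5.38, 4.88 and 5.68 CPM in wt and 3.46, 4.04 and 3.12 CPM in clpp2-1 (log2 -0.59, adjusted p = 0.484), and nad6 had a log2 fold change of -0.42 (adjusted p = 0.758). The nad7 call held with the block (adjusted p = 0.0278), while nad3 (adjusted p = 0.0801) and nad1C (0.0868) lost theirs. Without wt 1 and clpp2-1 1 together nad7 (ATMG00510) was not called (adjusted p = 0.0571). Leaving out any library but wt 2 ended the nad3 call (adjusted p = 0.0588 to 0.123), and leaving out wt 1, wt 3, any clpp2-1 library or clpp2-2 3 ended that of nad1C (0.05001 to 0.0961).

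For complexes III and IV, 1 of 4 identifiers rose. cox2, the copper-bearing subunit that takes electrons from cytochrome c, stood at 6.95, 7.19 and 6.57 CPM in wt and 13.1, 17.5 and 18.0 CPM in clpp2-1. The lowest clpp2-1 library was still well above the highest wt library (log2 1.23, SE 0.12, adjusted p = 0.00427), but in a fit of only the wt and clpp2-1 libraries cox2 (ATMG00160) was not called (adjusted p = 0.0541). cox3 stood at 7.01, 6.77 and 7.43 CPM in wt and 9.62, 10.9 and 9.86 CPM in clpp2-1, close to the threshold (log2 0.52, SE 0.08, adjusted p = 0.0644). cox1, which holds the oxygen-reducing site, stood at 13.7, 13.8 and 14.9 CPM in wt and 16.7, 21.7 and 18.7 CPM in clpp2-1 without a call (log2 0.43, adjusted p = 0.473). cob, the cytochrome b of complex III, was level, with a log2 fold change of 0.01 (95% interval -0.25 to 0.26).

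Of the 7 mitochondrially encoded ribosomal protein genes, only rps12 was called. It stood at 9.24, 6.36 and 8.42 CPM in wt and 19.96, 20.6 and 20.3 CPM in clpp2-1, with 3 nearly equal clpp2-1 libraries (log2 1.34, SE 0.14, adjusted p = 0.00769). Without wt 1 and clpp2-1 1 together rps12 (ATMG00980) was not called (adjusted p = 0.0571). rpl2, rpl5 and rps7 lay above all wt libraries without a call (log2 0.68, 0.45 and 0.22, adjusted p = 0.415, 0.299 and 0.774), rps3 and rps4 below (log2 -0.21 and -0.23, adjusted p = 0.758 for each), and rpl16 was at -0.0015. In the cytochrome c maturation genes, which attach heme to cytochromes c, values ran in both directions. ccmC, a heme-handling factor, was the only mitochondrial gene called lower: it stood at 4.97, 5.77 and 4.95 CPM in wt and 2.29, 2.84 and 2.42 CPM in clpp2-1 (log2 -1.06, SE 0.14, adjusted p = 0.0355). Its groups did not overlap, but the adjusted p was 0.104 with the block and 0.05001 to 0.219 when any 1 of the 9 libraries was left out.

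ccmFC, part of the heme ligation complex, stood at 21.0, 25.3 and 23.95 CPM in wt and 31.3, 47.1 and 35.8 CPM in clpp2-1. It was not called (log2 0.70, SE 0.14, adjusted p = 0.346), nor were ccmB, ccmFN1 and ccmFN2 (log2 -0.11, 0.67 and -0.07). matR, an intron maturase whose reading frame lies inside a nad1 intron, stood at 7.09, 6.83 and 7.35 CPM in wt and 12.6, 14.2 and 13.6 CPM in clpp2-1 (log2 0.93, SE 0.12, adjusted p = 0.0316). With the block matR was not called (adjusted p = 0.0988), nor was it without any single wt or clpp2-1 library or clpp2-2 1 (0.0736 to 0.182). mttB, a membrane transporter of the twin-arginine type, overlapped between genotypes (log2 -0.09, SE 0.27).

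Unnamed mitochondrial identifiers also carried a large part of the result: 16 of 79 tested were called, all higher, beside 11 of 37 with a name. Their median log2 fold change was only 0.04, against 0.43 for the named genes, and 43 of the 79 were above 0. ATMG00030 stood at 37.9, 30.9 and 34.4 CPM in wt and 90.7, 104 and 95.6 CPM in clpp2-1 (log2 1.49, SE 0.08, adjusted p = 0.000185). ATMG00670 had the widest fold of the mitochondrial genome, from 1.05, 1.39 and 2.18 CPM in wt to 9.97, 12.8 and 11.2 CPM in clpp2-1 (log2 2.87, SE 0.23, adjusted p = 0.00151). ATMG01090 went from 7.75, 9.12 and 7.99 CPM to 30.4, 42.4 and 37.0 CPM (log2 2.14, SE 0.13, adjusted p = 0.000192). In each of these 3 the lowest clpp2-1 library exceeded the highest wt library by more than 2-fold.

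Identifiers called higher often stood next to each other in number: 19 of the 26 fell into 7 runs of 2 to 5 consecutive identifiers. With 26 of 116 tested identifiers called higher, some would adjoin in any order. That number was not taken, so the 19 is a description only. The longest run held rps12, nad3, ATMG01000, ATMG01010 and ATMG01020, with log2 fold changes of 1.34, 1.47, 1.88, 2.30 and 2.77 in that order. rps12 and nad3 are neighbours in the RefSeq mitochondrial annotation. A run of 4 held atp1, ATMG01200, ATMG01210 and ATMG01220 (log2 0.95, 1.605, 1.25 and 1.56), and atp9 stood beside ATMG01090. The other runs were ATMG00030 with ATMG00040, ATMG00500 with nad7, nad1C with matR, and ATMG00660 with ATMG00670. atp8 was separated from ATMG00500 by ATMG00490, which stood at 0.607, 0.613 and 0.565 CPM in wt and 1.42, 3.08 and 2.01 CPM in clpp2-1 and just missed the threshold (log2 1.86, adjusted p = 0.0726). ccmC lay in a stretch of lower values: ATMG00890, ATMG00910 and ATMG00920 around it had log2 fold changes of -0.69, -0.53 and -0.62, each below all wt libraries and none called (adjusted p = 0.758, 0.758 and 0.720). Overlapping or co-transcribed features share reads, and whether the counting used strand is not stated, so members of a run are not independent.

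**Figure D3:**
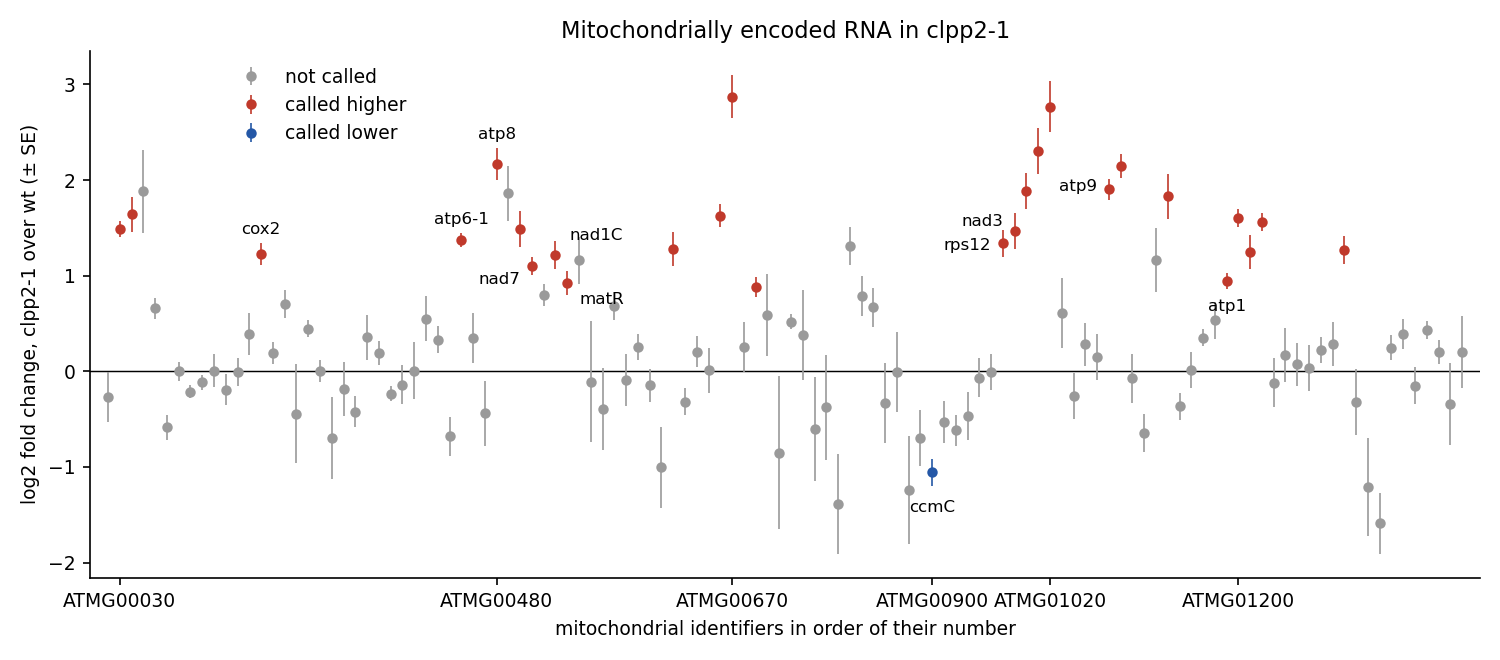
Log2 fold change of clpp2-1 over wt (± SE) for the 116 mitochondrial identifiers tested, in order of their number, with the 26 called higher in red, ccmC, called lower, in blue, and the rest in grey. Many red points stand beside another, such as ATMG00500 with nad7, nad1C with matR, and rps12 to ATMG01020, between stretches of grey points.

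Several of the weaker unnamed calls did not hold when 1 library was left out. For some, almost any library did this, including those of clpp2-2, which are not in the contrast. Leaving out wt 1 took ATMG01010 past the threshold, to an adjusted p of 0.0527. For ATMG00040, leaving out clpp2-1 2, clpp2-1 3 or wt 1 did the same (adjusted p = 0.0531 to 0.0791). The call ended for ATMG01280 without wt 1, wt 3, clpp2-1 2 or clpp2-1 3 (0.0510 to 0.0829) and ATMG00690 without wt 1, wt 3 or clpp2-1 3 (0.0877 to 0.107). ATMG00500 lost it without any library but clpp2-1 1 or clpp2-1 2 (0.0523 to 0.113), ATMG00610 and ATMG01210 without any but clpp2-1 1 (0.0694 to 0.199 and 0.0811 to 0.242), and ATMG01130 without any 1 of the 9 (0.0664 to 0.182). With the block, ATMG00500, ATMG00610, ATMG00690, ATMG01130 and ATMG01210 were not called (adjusted p = 0.156, 0.117, 0.0817, 0.181 and 0.104). ATMG01000 was not called without wt 1 and clpp2-1 1 together (adjusted p = 0.126), nor ATMG01020 in a fit of only the wt and clpp2-1 libraries (0.0597).

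Plastid RNA showed small values in 1 direction and no call. Of 77 identifiers, 70 had a log2 fold change above 0, and 17 (22.1%) lay above all wt libraries while 0 lay below. Over all genes tested, 5.17% lay above and 4.44% below. psbC, the CP43 antenna protein of photosystem II, had the smallest adjusted p: it stood at 41.9, 44.2 and 42.5 CPM in wt and 52.0, 63.0 and 53.8 CPM in clpp2-1 (log2 0.39, adjusted p = 0.204). ndhH, of the plastid NDH complex that carries electrons around photosystem I, stood at 37.8, 32.7 and 33.9 CPM in wt and 45.7, 57.8 and 43.6 CPM in clpp2-1 (log2 0.49, adjusted p = 0.473). By list, the 32 photosynthesis genes had a median log2 fold change of 0.17, the 11 NDH genes of 0.47 and the 22 genes of the expression machinery and clpP1 of 0.18. The median over the whole table was near 0. All 11 NDH genes were above 0, with 5 above all wt libraries, beside 22.1% of plastid identifiers and 5.17% of all genes. clpp2-1 2 was the highest clpp2-1 library in the summed CPM of all 3 plastid lists and of all 5 mitochondrially encoded lists.

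Among nuclear genes, 9 changed, of which CLPP2 is described above. Positions are those of TAIR10.1. AT3G56210, an ARM repeat protein with 8 exons on chromosome 3 (20852380 to 20855610), stood at 139, 131 and 139 CPM in wt and 89.9, 93.9 and 92.0 CPM in clpp2-1. Its change was small and its libraries very even (log2 -0.57, SE 0.04, adjusted p = 0.000893). AT5G01990 (chromosome 5, 377231 to 379911), PILS6 of the auxin efflux carrier family, stood at 23.3, 23.9 and 25.8 CPM in wt and 12.9, 12.9 and 14.6 CPM in clpp2-1. It fell in every library (log2 -0.85, SE 0.08, adjusted p = 0.00308), and 373 of its 1749 exon bases overlap AT5G01980 on the opposite strand. AT3G45010, the serine carboxypeptidase-like gene scpl48 (chromosome 3, 16466144 to 16468989), stood at 18.8, 17.3 and 20.9 CPM in wt and 33.3, 34.4 and 33.5 CPM in clpp2-1 (log2 0.83, SE 0.08, adjusted p = 0.00332).

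Without wt 1 and clpp2-1 1 together, AT5G01990, AT3G45010 and AT4G36850 were not called (adjusted p = 0.0567, 0.0820 and 0.0941). AT4G26600, an S-adenosylmethionine-dependent methyltransferase with 8 annotated transcripts (chromosome 4, 13419501 to 13423802), stood at 22.5, 17.9 and 19.0 CPM in wt and 40.7, 45.6 and 40.3 CPM in clpp2-1. It was called at log2 1.09 (SE 0.15, adjusted p = 0.0388), and lost the call with the block (adjusted p = 0.117) and without any library but clpp2-2 2 (0.0638 to 0.199). AT2G05915, an uncharacterized gene (chromosome 2, 2263816 to 2264265), stood at 5.19, 7.86 and 7.27 CPM in wt and 14.68, 16.0 and 16.9 CPM in clpp2-1. It rose (log2 1.23, SE 0.15, adjusted p = 0.0204), but not with the block (adjusted p = 0.0978) or without wt 3, any clpp2-1 library, clpp2-2 1 or clpp2-2 2 (0.0521 to 0.121). All 351 of its exon bases lie opposite AT2G05914, so reads of the pair cannot be told apart without strand.

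**Figure D4:**
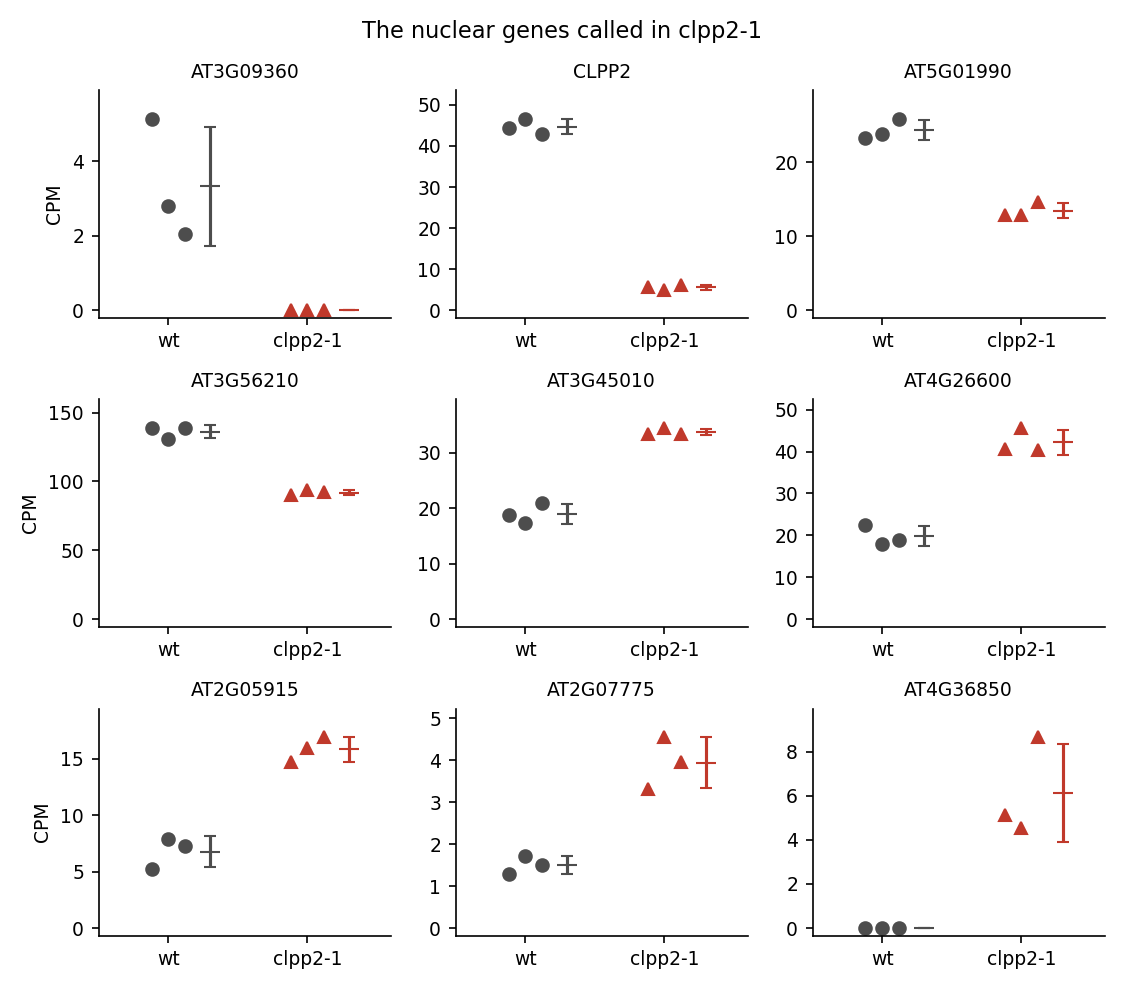
CPM of the 9 nuclear genes called in clpp2-1, 1 panel per gene with its own axis from 0, 1 point per library and the mean ± SD of 3 libraries. AT3G09360, CLPP2, AT5G01990 and AT3G56210 are lower in all 3 clpp2-1 libraries and the other 5 genes higher, with AT3G09360 at 0 in clpp2-1 and AT4G36850 at 0 in wt.

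AT2G07775, an uncharacterized gene on chromosome 2 (3483035 to 3484062), was the called nuclear gene whose sequence is also mitochondrial. All 670 of its exon bases match the mitochondrial genome with 0 mismatches. Chromosome 2 of Col-0 is known to carry a large insertion of mitochondrial DNA. The first 150 bases of its transcript are shown because they occur letter for letter in the mitochondrial genome, so that a read from them fits either place (RefSeq, TAIR10.1, chr2:3483035-3483184, plus strand, 5′ to 3′).
AT2G07775: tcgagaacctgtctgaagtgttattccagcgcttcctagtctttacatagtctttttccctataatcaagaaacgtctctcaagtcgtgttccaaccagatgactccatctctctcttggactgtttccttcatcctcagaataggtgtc
The gene stood at 1.297, 1.73 and 1.51 CPM in wt and 3.32, 4.55 and 3.97 CPM in clpp2-1 (log2 1.38, SE 0.17, adjusted p = 0.0161). It was not called with the block (adjusted p = 0.0571) or when clpp2-1 2, clpp2-1 3, wt 1, wt 3, clpp2-2 3 or else clpp2-2 1 was left out (0.05001 to 0.0983). In all, 18 tested nuclear genes had at least 50% of their exon bases matched by mitochondrial DNA, 16 of them on chromosome 2. Of the 18, 1 was called, 10 had a log2 fold change above 0, 6 lay above all wt libraries and 6 below, beside 5.17% and 4.44% of all genes. Whether their counts came from the nucleus or from mitochondria cannot be told apart here.

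A pair of called nuclear genes switched between 0 and present. AT4G36850, a PQ-loop transmembrane protein with 4 annotated transcripts (chromosome 4, 17353291 to 17356037), had no count in any wt library but 5.15, 4.53 and 8.66 CPM in the clpp2-1 libraries. With 3 counts in each wt library taken as the floor, this is at least 74.2-fold higher; the adjusted p was 0.0105, while limma-voom gave 0.178. AT3G09360, a Brf1-like protein of the RNA polymerase III initiation machinery with 3 annotated transcripts (chromosome 3, 2873412 to 2878591), stood at 5.13, 2.79 and 2.05 CPM in wt and at 0 in every clpp2-1 library. Against the same floor that is at least 40.7-fold lower. The adjusted p was 0.0107 in the test used throughout, 0.104 with the replicate block and 0.0754 by limma-voom.

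Such patterns of 0 and presence were common and seldom followed genotype. In the 6 libraries, 379 genes were at 0 in some and at 30 counts or more in all the others. Of these, 97.4% have 2 or more annotated transcripts. The same share over all genes was not taken, so this figure cannot be read as particular to them. Of the 379, 3 were at 0 in 1 whole genotype: AT4G36850, AT3G09360 and AT3G46920. AT3G46920, a kinase, stood at 3.20, 3.01 and 2.42 CPM in wt and at 0 in clpp2-1, at least 35.2-fold lower, yet was not called (adjusted p = 0.758). Other wide nuclear differences without overlap were also uncalled. ARABIDILLO-1 stood at 0, 1.48 and 0 CPM in wt and 8.12, 3.95 and 9.29 CPM in clpp2-1 (log2 3.85, SE 1.21, adjusted p = 0.758). LNG2 stood at 4.88, 8.33 and 12.3 CPM in wt and 2.72, 0 and 0 CPM in clpp2-1 (log2 -3.23, SE 1.21, adjusted p = 0.758), and for IQD29, AT5G39160, AT4G24810, AT2G42640 and ABCG33 the absolute log2 fold change ran from 1.75 to 3.80 at the same adjusted p. The nuclear gene nearest the threshold without a call was AT5G27410, an aminotransferase-like protein, at 20.8, 21.0 and 19.6 CPM in wt and 26.3, 26.3 and 26.5 CPM in clpp2-1 (log2 0.36, SE 0.06, adjusted p = 0.0832).

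Nuclear genes for mitochondrial functions held 0 called members in each of 5 lists. Since 0.0448% of all nuclear genes were called, a count of 0 is at the background for lists of this size. In the 31 nuclear-encoded complex I genes 0 were called, and the median log2 fold change was 0.02, with members between -0.12 and 0.18. In the 37 genes of complexes II to V and cytochrome c 0 were called, with a median of 0.05 and members between -0.06 and 0.24. CYC1-1, the cytochrome c1 of complex III, stood at 158, 167 and 169 CPM in wt and 178, 192 and 174 CPM in clpp2-1 (log2 0.14, adjusted p = 0.758). Protein import (26 tested) had a median of 0.07, mitochondrial RNA polymerases, splicing and RNA turnover (21) of 0.10, and the TCA cycle with pyruvate dehydrogenase (21) of 0.03, with 0 called in each. These medians stood within 0.10 of that of all genes tested, whereas the 5 mitochondrially encoded lists ran from -0.07 to 1.16. The lowest of them, for cytochrome c maturation, matR and mttB, had a median of 0.15 without wt 2.

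The partners of CLPP2 and the other proteases did not pass the test. The CLPX genes, which encode the unfoldase ring of the protease, had log2 fold changes between -0.18 and 0.06. CLPX3 stood at 62.9, 53.4 and 46.5 CPM in wt and 53.0, 43.4 and 47.4 CPM in clpp2-1, with overlap (adjusted p = 0.779). CLPX2 stood at 25.2, 24.03 and 23.4 CPM in wt and 25.1, 25.3 and 25.5 CPM in clpp2-1 (log2 0.06, adjusted p = 0.790). Among 19 other mitochondrial proteases and chaperones 16 were above 0, the median was 0.04 and 0 were called. The matrix chaperonin HSP60 (AT3G23990) stood at 257, 277 and 272 CPM in wt and 290, 326 and 309 CPM in clpp2-1, above wt in every library but not called (log2 0.20, SE 0.06, adjusted p = 0.758).

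Nuclear genes known to respond when mitochondria are impaired held 0 calls too, which at 0.0448% of nuclear genes called is no result about them. The 15 members of the mitochondrial dysfunction list had a median of 0.11, 12 above 0 and 0 beyond all wt libraries, beside 5.17% of all genes above and 4.44% below. AOX1A, the alternative oxidase used as the usual reporter of that response, stood at 95.3, 130 and 148 CPM in wt and 128, 154 and 130 CPM in clpp2-1, within the wt range in 2 of 3 libraries. AOX1D stood at 8.47, 1.23 and 9.93 CPM in wt and 0, 1.34 and 2.88 CPM in clpp2-1 (log2 -2.22, SE 1.38, adjusted p = 0.780). The 12 tested alternative oxidases, NAD(P)H dehydrogenases and uncoupling proteins had a median of 0.07.

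**Figure D5:**
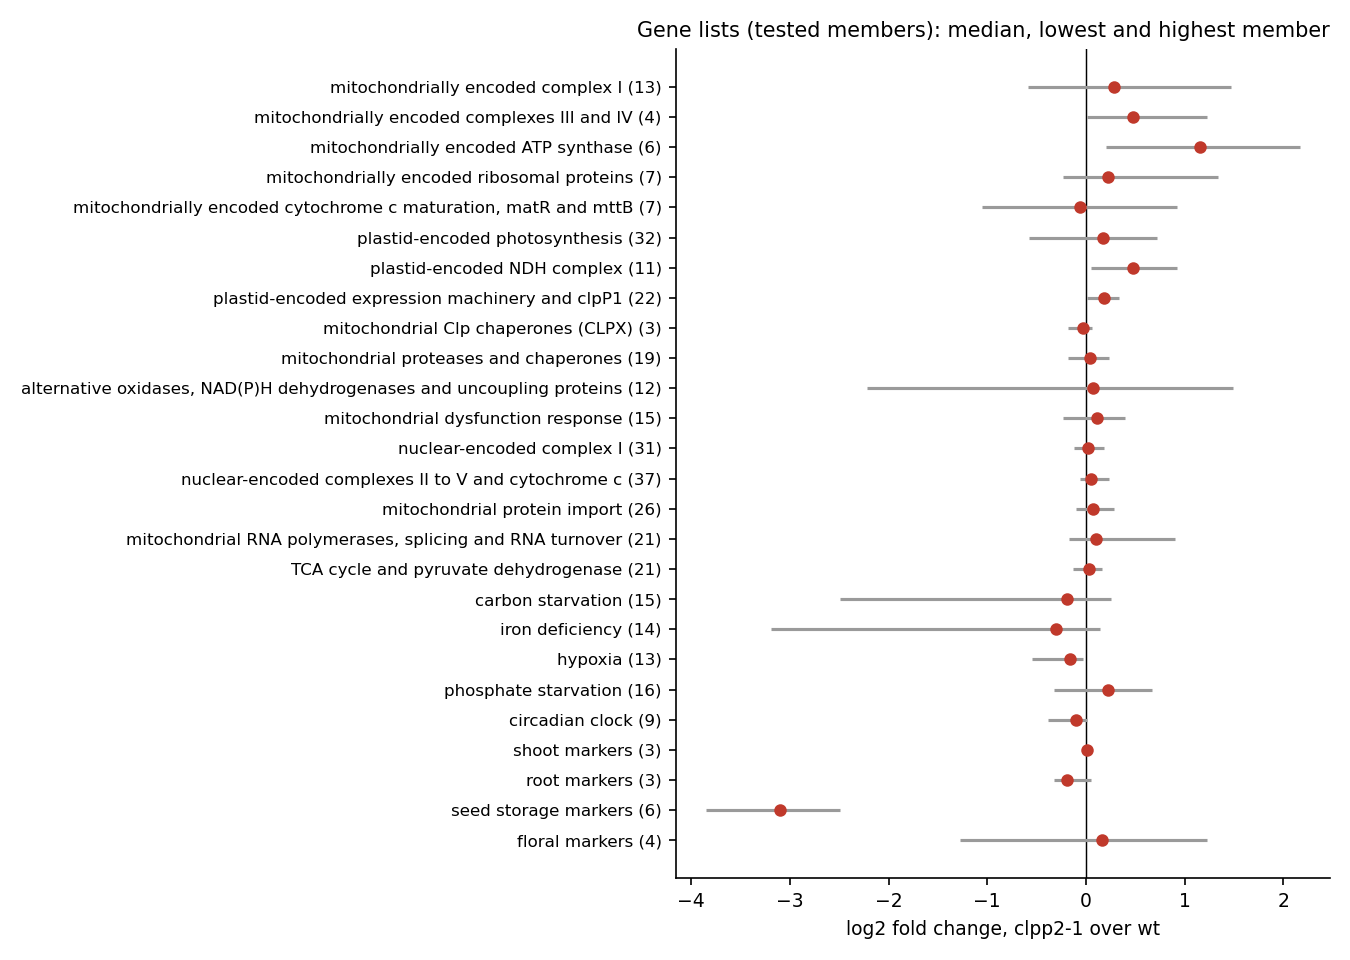
Log2 fold change of clpp2-1 over wt for the 26 gene lists, with the median of the tested members as a point and a line from the lowest to the highest member; the number of tested members is in brackets. The mitochondrially encoded ATP synthase list has the highest median (1.16), the lists of nuclear complex subunits have medians of 0.02 and 0.05, and the seed storage list stands at -3.10.

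Lists for nutrient and stress states held 0 called genes, again at the background of 0.0448%, and several of their genes spread widely between wt libraries. Carbon starvation genes had a median of -0.19 over 15 tested, with 13 below 0. Of the 15, 5 lay below all wt libraries and 0 above, beside 4.44% and 5.17% of all genes. ASN1, the dark-induced asparagine synthetase, stood at 35.6, 7.55 and 37.2 CPM in wt and 0.790, 4.34 and 9.15 CPM in clpp2-1, where wt 2 lay inside the clpp2-1 range (log2 -2.49, SE 0.81, adjusted p = 0.758). Iron deficiency genes had a median of -0.31 over 14 tested. The iron transporter IRT1 stood at 21.3, 1.199 and 2.50 CPM in wt and 0.599, 0.573 and 1.55 CPM in clpp2-1, so that its fold rested on wt 1 (log2 -3.19, SE 1.02, adjusted p = 0.758). Hypoxia genes had a median of -0.16 with 13 of 13 below 0, and circadian clock genes -0.10 with 8 of 9 below 0.

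Phosphate starvation genes had a median of 0.22 over 16 tested, with 13 above 0. PHO1;H1, a phosphate exporter homolog, stood at 4.22, 6.10 and 6.49 CPM in wt and 7.49, 9.38 and 9.80 CPM in clpp2-1, without overlap but uncalled (log2 0.67, SE 0.17, adjusted p = 0.720). The clock gene PRR9 stood at 13.4, 11.9 and 12.6 CPM in wt and 10.7, 8.92 and 9.56 CPM in clpp2-1 (log2 -0.38, SE 0.10, adjusted p = 0.702). Shoot markers had a median of 0.01 and root markers of -0.19. Seed storage genes had a median of -3.10 with 6 of 6 tested below 0; CRA1, a seed storage globulin, stood at 31.6, 8.47 and 0.162 CPM in wt and 4.17, 2.35 and 0.625 CPM in clpp2-1, and differed more between wt libraries than between genotypes.

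Set beside clpp2-1, the second line can be read only with the limit that both comparisons share the 3 wt libraries and so are not independent. In clpp2-2, 2044 of 20294 genes were called (10.1%), 1116 higher (5.5%) and 928 lower (4.57%). Of the 36 genes called in clpp2-1, 34 were also called in clpp2-2, 33 of them in the same direction and AT2G05915 in the opposite one. AT5G01990 and AT3G09360 were not called in clpp2-2. atp9 had log2 fold changes of 1.90 in clpp2-1 and 1.84 in clpp2-2, atp8 2.17 and 2.01, rps12 1.34 and 1.36, and nad7 1.10 and 1.42. The mitochondrial share of counts in clpp2-2 was 0.114, 0.105 and 0.111%. For genes not called in clpp2-1, ATMG00090 (rps3) had log2 fold changes of -0.21 in clpp2-1 and 0.11 in clpp2-2, and cox1 0.43 and 0.63. In the direct test of clpp2-2 against clpp2-1, which called 806 genes (3.97%; 475 higher, 2.34%, and 331 lower, 1.63%), 6 of the 36 differed: ATMG00030, ATMG01220, AT3G56210, AT5G01990, AT3G09360 and AT2G05915. The remaining 30 did not pass that test, which does not show that the lines act alike.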

How the data were processed

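The authors deposited expected counts, that is, whole-number estimates per gene; no gene in the table totals under 10 over the 9 libraries. Salmon 0.14.0, FastQC, DESeq2, DESeq and the TAIR10 build appear in the submitters' processing notes, with no role given. Per the labels' protocols the libraries were made from total RNA with random hexamers. Mean shares of counts in wt were only 0.0554% mitochondrial and 0.397% plastid. How fully organelle RNA was captured was not tested, so organelle shares and CPM describe captured RNA and not amounts per cell. Library totals lay between 36043744 and 36477053, so scaling before deposition is possible. The edgeR, DESeq2 and limma-voom fits, the intervals, the floors and the chi-square check of libraries all assume unscaled counts. How reads that fit several places were divided is not stated, which leaves genes with near-identical copies uncertain.

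The tests used edgeR 4.0.16 (R 4.3.3) after filterByExpr and TMM scaling (factors 0.974 to 1.025). A single quasi-likelihood model held all 9 libraries, so that the 3 genotypes share 1 estimate of spread, and each pair of genotypes was a contrast in it. The procedure was also run on simulated counts with known fold changes. These were drawn from the fitted spread without replicate pairs, so they check the procedure and not the calls made here. Shares of counts were compared by exact permutation tests in Python 3.11.15 with SciPy 1.17.1. No 2 libraries of a genotype were alike within counting error (chi-square per gene 6.26 to 32.0).

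The labels number the libraries 1 to 3 in each genotype without saying what a number shares. Deviations from the genotype mean were compared over 11806 genes with a mean of at least 10 CPM. They correlated at 0.253, 0.210 and 0.115 between same-numbered wt and clpp2-1 libraries. Different-numbered ones ran from -0.356 (wt 1 with clpp2-1 2) to 0.0955 (wt 1 with clpp2-1 3), close to the lowest same-numbered value. The numbers were taken to pair the libraries, though the main test did not use the pairs. Deviations cancel out within a genotype, so these correlations depend on each other and cannot establish a pairing. The fit with the replicate block is given where it changes a call. The correlations are across genes, which are not independent replicates.

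Alternatives were DESeq2 size factors, no filter, DESeq2 1.42.0, limma-voom (limma 3.58.1), the replicate block, only the wt and clpp2-1 libraries, library sizes from nuclear genes, each library left out, wt 1 and clpp2-1 1 left out together, and a count at 2-fold or more. The genes chosen for naming are CLPP2, every called gene, mitochondrial genes in the lists and identifiers next to a called one. They also include the 5 uncalled genes with the smallest adjusted p and up to 4 members per list. The rest are the 5 higher and 5 lower nuclear genes of largest fold without overlap and at least 1 CPM. Not all of the chosen genes are described above. ATMG00810, among the uncalled genes nearest the threshold, is not (log2 1.31, edgeR adjusted p = 0.0612). Nor are several identifiers next to a called one, such as ATMG00050 (log2 1.88, edgeR adjusted p = 0.496). AOX1A and members cited for their range were added after their values were seen. The comparison, the 26 lists (383 genes, 375 in the table) and the rule were chosen with earlier results of these data known. Positions and products come from TAIR10.1 (RefSeq), whose nuclear annotation includes all 22056 nuclear identifiers of the count table. The 198 organelle identifiers were named from fixed lists. Nuclear genes with mitochondrial sequence were found with BLAST 2.17.0 at 95% identity or more.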

Additional observations from a re-analysis of the deposited data

Results flagged for a closer look

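Values that differed between the 2 knock-out lines are given here, each as the log2 difference clpp2-2 minus clpp2-1 from edgeR's quasi-likelihood test, adjusted over all genes tested. ATMG00030 was higher in clpp2-2 by 0.39 (adjusted p = 0.0328) and ATMG01220 by 0.43 (adjusted p = 0.0313), on top of a rise in both lines. AT3G56210 was lower than wt in both lines and less so in clpp2-2 (0.25, adjusted p = 0.0177). AT5G01990 (PILS6) stood at 21.9, 20.7 and 23.49 CPM in clpp2-2, near wt, and differed by 0.71 (adjusted p = 0.00281). AT3G09360, at 0 in clpp2-1, stood at 5.44, 4.75 and 8.44 CPM in clpp2-2, a fitted difference of 10.8 that depends on the prior count (adjusted p = 0.00244). AT2G05915 went the opposite way, to 3.52, 3.20 and 2.88 CPM in clpp2-2, below every wt library, with a difference of -2.31 (adjusted p = 0.000543).

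Genes named but not called in clpp2-1 also differed between the lines. ATMG00090 (rps3) and ATMG00110 (ccmB) were higher in clpp2-2 by 0.32 and 0.46 (adjusted p = 0.0388 and 0.0178). AT1G10070 (BCAT2), of branched-chain amino acid breakdown, was higher by 0.57 (adjusted p = 0.0420), AT1G56430 (NAS4), a nicotianamine synthase, by 1.12 (adjusted p = 0.0328), and AT1G33360 (CLPX3) by 0.63 (adjusted p = 0.0211).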

How the results depend on the processing

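Called genes were 36; there were 92 with DESeq2, 21 with only the wt and clpp2-1 libraries, 23 with the replicate block, 23 without wt 1 and clpp2-1 1 together, and 23 to 63 with 1 library left out. Mitochondrial genes called higher (26) were 14 with only the 2 genotypes, 16 without wt 1 and clpp2-1 1, and 15 to 25 with 1 library left out. Nuclear calls (9) were 52 with DESeq2, 5 with the block, and 6 to 42 with 1 library left out; plastid calls (0) were 2 with DESeq2. Called genes that differ between the lines (6) were 3 without wt 1 and clpp2-1 1, and 3 to 7 with 1 library left out. The causes were not tested, apart from the smaller number of libraries in some fits. None of the 36 called genes was called in the opposite direction in an alternative fit. The mitochondrial majority of the calls did not hold throughout. With DESeq2 38 of 92 calls were mitochondrial and 52 nuclear, and without wt 2 only 21 of 63 were mitochondrial. The median of the list for cytochrome c maturation, matR and mttB changed sign without wt 2. Over the 36 called genes and 17 alternative fits, 145 of 612 values lost the call. Over the 140 uncalled genes chosen for naming, 21 of 2376 gained it. Of the list medians, 14 of 442 moved by more than their spread between replicates. The ratio of mitochondrial shares stayed between 1.63 and 1.81 with 1 library left out. The numbers were taken to pair wt and clpp2-1 libraries, which the labels do not state and the check in the methods cannot establish. Apart from the calls given, the block ended none. Depth limits low genes: the median 95% interval spans 1.11-fold either way at 100 CPM or more and 2.03-fold under 1 CPM.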
